A study of Rattus norvegicus with 44 samples.

Results

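Aquaporins are membrane channels that let water, and in some family members glycerol, cross the cell membrane. In the kidney, Aqp1 returns most filtered water across the proximal tubule and the thin descending limb, whereas Aqp2 is brought to the luminal membrane of collecting duct principal cells when vasopressin binds the V2 receptor (Avpr2) and raises cyclic AMP. Water then leaves these cells through Aqp3 and Aqp4 on the opposite side. The genes described here are the 7 rows of the deposited expression table with the symbols Aqp1, Aqp2, Aqp3, Aqp4, Aqp7, Aqp11 and Avpr2, of 28906 distinct symbols in all, chosen by name and not by level, and all 7 passed the filter that left 13439 genes for testing. Earlier results of these data were known when the genes were chosen, so counts set beside the shares of all genes are descriptive.

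Bulk kidney RNA was sequenced as 1 library from each of 44 male ZSF1 obese rats, which become diabetic and lose kidney function with age. Treatment in the feed began at 22 weeks of age and lasted 6 months. The groups received Enalapril, an angiotensin-converting enzyme inhibitor (3 mg/kg/day, n = 9), Compound 1, a stimulator of soluble guanylate cyclase (1 mg/kg/day, later 3, n = 12), both agents together (Enalapril 3 mg/kg/day, Compound 1 kept to 1, n = 12, called the combination), or the diet without drug (Vehicle, n = 11). Every group, Vehicle included, was obese and carried a telemetry device, lean rats were not part of the comparison, and Compound 1 was given at a higher final dose alone than in the combination.

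Levels are given as FPKM, a fragment count scaled to transcript length and to library size, so that genes can be set side by side. FPKM hold no read totals, so absolute depth is unknown; relative depth, read from ratios of low values, ran from 0.616 to 1.43 times the median library, and 12461 to 13367 genes had an FPKM above 1. Mitochondrially encoded transcripts took 33.0 ± 5.93% of FPKM with Enalapril, 30.4 ± 3.99% with Compound 1, 32.3 ± 4.87% with the combination and 27.7 ± 5.40% in Vehicle (SD). The tissue label was matched by its markers, since all 12 proximal tubule markers, all 10 principal cell markers and all 8 intercalated cell markers passed the filter. Compound 1 animal 3001 and Vehicle animals 1003 and 1004 stood lowest for proximal tubule markers (mean log2 level 6.71, 7.07 and 7.16, against a Vehicle median of 7.79). In bulk tissue, fewer cells of a type and less RNA per cell cannot be told apart.

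The upstream sequences of 3 of the genes are shown because Aqp1 is the most abundant of the genes, Aqp11 changed with both treatments that contained Enalapril, and Aqp2 is the cyclic AMP target of the receptor. They are the 250 bases before the annotated start, written 5′ to 3′ on the strand of the gene, from RefSeq on build GRCr8 (the expression values were made on rn6). Capitals mark TATAAA in Aqp1 and CGTCA in Aqp2, which is TGACG, the core of the cyclic AMP response element, on the opposite strand.

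Aqp1 (chr4:85812534-85812783, plus strand): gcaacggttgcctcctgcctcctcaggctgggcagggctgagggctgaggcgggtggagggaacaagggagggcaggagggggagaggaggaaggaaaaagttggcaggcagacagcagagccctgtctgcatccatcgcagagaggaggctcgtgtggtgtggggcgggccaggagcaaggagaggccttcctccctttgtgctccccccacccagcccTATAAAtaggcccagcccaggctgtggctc
Aqp2 (chr7:132590036-132590285, plus strand): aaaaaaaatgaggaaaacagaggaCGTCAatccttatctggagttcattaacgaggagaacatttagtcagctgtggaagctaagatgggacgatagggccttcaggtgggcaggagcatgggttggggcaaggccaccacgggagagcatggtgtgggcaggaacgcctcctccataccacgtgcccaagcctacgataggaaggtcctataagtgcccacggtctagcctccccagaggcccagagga
Aqp11 (chr1:161467919-161468168, minus strand): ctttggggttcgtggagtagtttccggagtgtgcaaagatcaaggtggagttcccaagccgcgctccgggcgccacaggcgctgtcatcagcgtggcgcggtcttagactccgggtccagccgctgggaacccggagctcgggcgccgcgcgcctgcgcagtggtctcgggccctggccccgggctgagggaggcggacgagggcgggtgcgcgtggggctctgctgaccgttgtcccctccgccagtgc

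Of the 7 genes, 6 had an upstream sequence in the table, and Aqp7 had none. TGACG, searched on both strands, was found in 1 of the 6, 226 bases before the start of Aqp2, and in 19.0% of all 27457 upstream sequences of this length. The full palindrome TGACGTCA, which contains TGACG, was in none of the 6 and in 1.70% of all. TATAAA, a motif chosen after the sequences were seen, stood 30 bases before the start of Aqp1, 38 before that of Aqp3 and, on the opposite strand, 45 before that of Avpr2, and in 13.1% of all. GC content was 65.2% upstream of Aqp1, 54.4% upstream of Aqp2 and 70.8% upstream of Aqp11. On chromosome 5, Aqp7 and Aqp3 are neighbouring protein-coding genes, and on chromosome 7 Aqp2 is followed by Aqp5 and Aqp6.

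Levels of the 7 genes spanned a wide range and kept nearly the same order in every group. Aqp1 was the most abundant, at 508 ± 73.2 FPKM with Enalapril, 447 ± 69.7 with Compound 1, 523 ± 58.8 with the combination and 448 ± 61.8 in Vehicle (mean ± SD). In Vehicle it was followed by Aqp2 (78.2 ± 10.9 FPKM), Aqp7 (63.9 ± 6.52), Aqp3 (36.3 ± 4.87), Aqp11 (15.99 ± 2.50), Avpr2 (12.1 ± 3.69) and Aqp4 (4.29 ± 1.104). Neighbours in this order were separated by their ranges in Vehicle except that the ranges of Aqp2 and Aqp7 overlapped, with Aqp2 the higher in 10 of 11 animals, as did those of Aqp11 and Avpr2, with Aqp11 the higher in 9 of 11. With Enalapril the place of Aqp2 and Aqp7 was exchanged, and Aqp7 was the higher in 9 of 9 animals; with the combination it was the higher in 9 of 12.

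**Figure D1:**
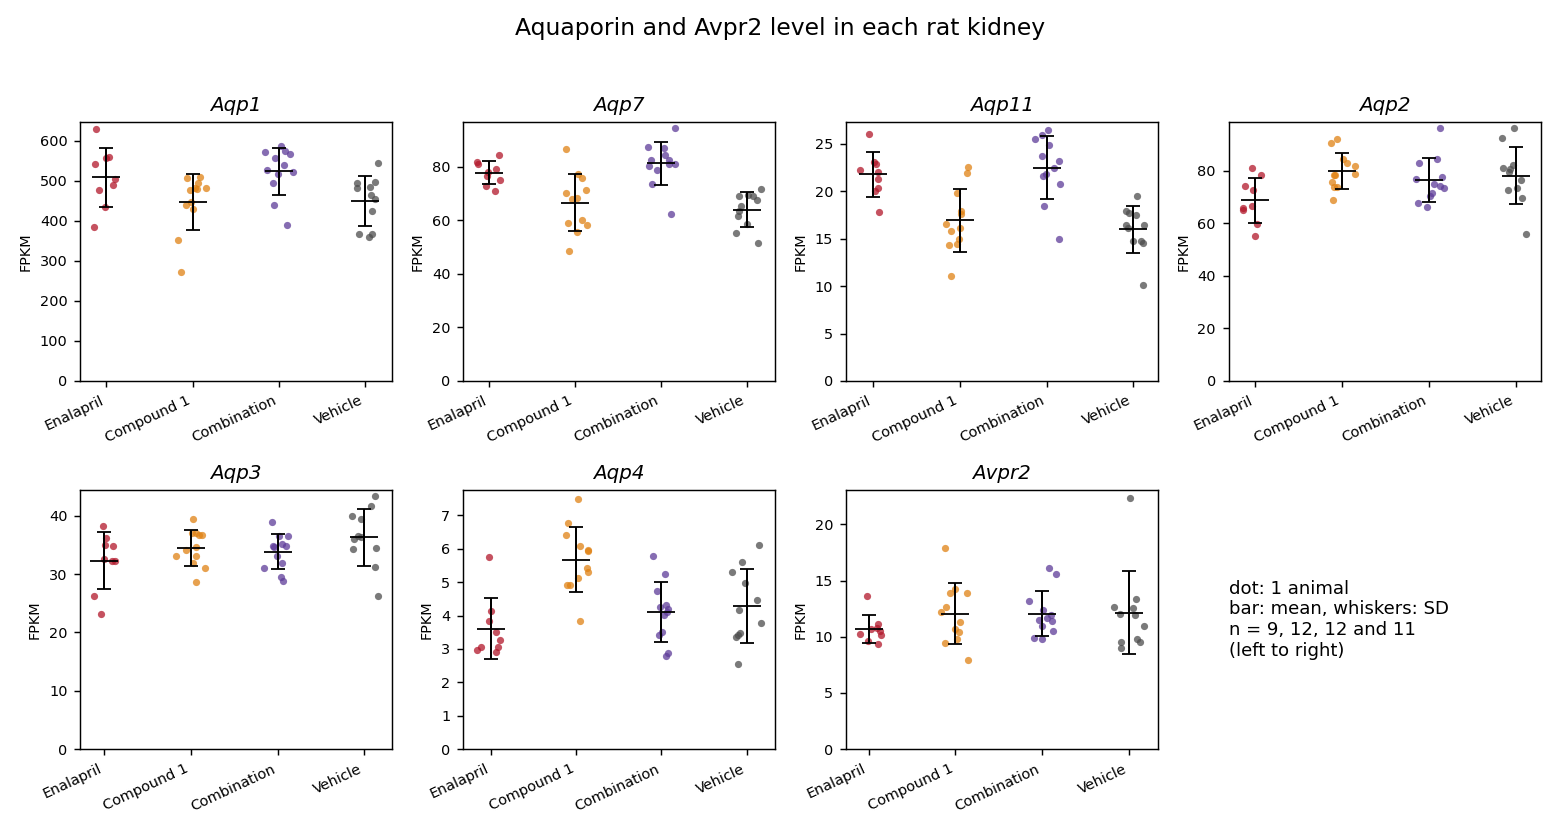
Level of each gene in FPKM (vertical axis, starting at 0) in every animal by group, with Enalapril, Compound 1, the combination and Vehicle from left to right; each dot is an animal, the bar is the mean and the whiskers are the SD. Aqp7 and Aqp11 sit higher with Enalapril and the combination than in Vehicle, where the highest animals reach 71.6 and 19.5 FPKM, whereas Aqp2, Aqp3 and Avpr2 overlap widely.

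Transcripts of 2 of the proximal tubule aquaporins were higher with Enalapril, those of 3 with the combination, and none with Compound 1 alone. Aqp7, an aquaglyceroporin of the brush border of the straight proximal tubule, and Aqp11, an intracellular aquaporin of proximal tubule cells whose loss gives mice polycystic kidneys, rose in both treatments that contained Enalapril, and Aqp1 rose with the combination. The changes were small, from 1.17-fold to 1.41-fold. None of the 7 genes met the fold rule of the study, which asks for an adjusted p below 0.05 together with a change of more than 1.5-fold or to less than 0.66-fold, in any comparison with Vehicle, a rule met by 4.55% of tested genes for Enalapril, 0.201% for Compound 1 and 7.39% for the combination. By adjusted p alone, 2 of 7 were higher with Enalapril and 3 of 7 with the combination, against 3.58% and 6.38% of all tested genes, and 0 of 7 were lower, against 26.7% and 39.4%. With Compound 1, 0 of 7 passed in either direction, against 0.476% of all genes (limma; Aqp4 alone had an unadjusted p under 0.05). After median-of-ratios scaling Aqp11 alone also met the fold rule, with Enalapril and with the combination (0.61 and 0.67 on the log2 scale). Of all 13439 tested genes, 209 met it upward and 159 downward with Enalapril on that scale, and 347 and 298 with the combination. The shares of all genes by adjusted p alone are from values before this scaling, here and below, and do not apply to counts made after it. All 3 comparisons share the same Vehicle animals.

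Aqp11 had 17.8 FPKM in the lowest, 22.1 in the median and 26.1 in the highest animal with Enalapril, 11.04, 16.4 and 22.5 with Compound 1, and 14.9, 22.8 and 26.5 with the combination, against 10.1, 16.4 and 19.5 in Vehicle. All 9 Enalapril animals lay above the Vehicle median and 8 above its highest animal, as did 11 and 10 of 12 combination animals, and the lowest combination animal, 4002, was within the Vehicle range. The log2 fold change against Vehicle was 0.45 ± 0.09 (SE) with Enalapril (1.37-fold, 95% interval 1.20 to 1.56, adjusted p = 0.00143) and 0.49 ± 0.10 with the combination (1.41-fold, 1.22 to 1.61, adjusted p = 0.000377). With Compound 1 it was 0.07 ± 0.11 (0.905-fold to 1.23-fold, adjusted p = 0.776), and 6 of 12 animals lay above the Vehicle median.

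Aqp7 had 70.9 FPKM in the lowest, 78.1 in the median and 84.5 in the highest animal with Enalapril, 48.4, 68.1 and 86.7 with Compound 1, and 62.2, 81.7 and 94.4 with the combination, against 51.5, 65.2 and 71.6 in Vehicle. Of the Enalapril animals 8 of 9, and of the combination animals 11 of 12, exceeded every Vehicle animal. The log2 fold change was 0.29 ± 0.06 with Enalapril (1.22-fold, 95% interval 1.12 to 1.33, adjusted p = 0.00167) and 0.35 ± 0.06 with the combination (1.27-fold, 1.16 to 1.39, adjusted p = 0.000204). It was 0.05 ± 0.08 with Compound 1 (adjusted p = 0.806), whose animals were widely spread, 1 below the lowest and 3 above the highest Vehicle animal. Without Vehicle animals 1003 and 1004 both genes still passed, at 0.23 for Aqp7 and 0.37 for Aqp11 with Enalapril (adjusted p = 0.00264 and 0.00111 with limma) and at 0.29 and 0.41 with the combination (adjusted p = 0.000631 and 0.000828); over all alternatives the adjusted p ranged from 0.00117 to 0.369 and from 0.000995 to 0.375 with Enalapril. With Compound 1 neither passed in any of 23 fits that left out 1 animal.

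Aqp1 had 383 FPKM in the lowest, 505 in the median and 628 in the highest animal with Enalapril, 273, 477 and 508 with Compound 1, and 389, 532 and 586 with the combination, against 358, 463 and 544 in Vehicle. The groups overlapped, and 7 of 9 Enalapril and 10 of 12 combination animals lay above the Vehicle median. The log2 fold change of 0.23 ± 0.08 with the combination passed the test (1.17-fold, 95% interval 1.05 to 1.31, adjusted p = 0.0197), while that of 0.18 ± 0.09 with Enalapril did not (adjusted p = 0.132). Without Vehicle animals 1003 and 1004, the combination value was 0.16 (adjusted p = 0.0741; range over the alternatives 0.000541 to 0.465). With Compound 1 the log2 fold change was -0.01 ± 0.09 (adjusted p = 0.969).

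**Figure D2:**
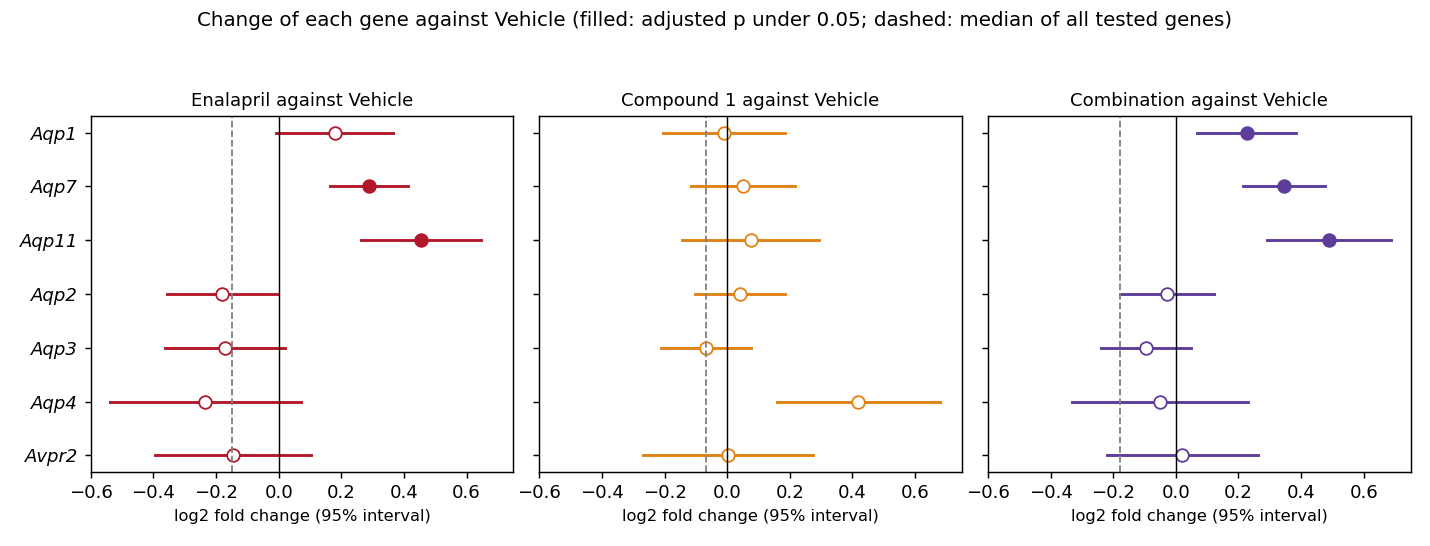
Log2 fold change of each gene (horizontal axis) with its 95% interval for Enalapril, Compound 1 and the combination against Vehicle; filled points have an adjusted p under 0.05, the solid line is 0 and the dashed line the median of all tested genes. Aqp7 and Aqp11 are filled with Enalapril (0.29 and 0.45), Aqp1, Aqp7 and Aqp11 with the combination (0.23, 0.35 and 0.49), and no gene with Compound 1.

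Proximal tubule markers were higher in the same groups, and most genes were lower. The median log2 fold change of all tested genes was -0.15 for Enalapril, -0.07 for Compound 1 and -0.18 for the combination. After median-of-ratios scaling it was 0.0062, 0.0042 and -0.0041, and on that scale Aqp1 passed with Enalapril too (0.34, adjusted p = 0.0118). Of 12 proximal tubule markers, 10 were higher by adjusted p with Enalapril and 10 with the combination, none with Compound 1, and 0 were lower in any of the 3, with median log2 fold changes of 0.39, -0.03 and 0.39. Those that also met the fold rule were Pck1, an enzyme of glucose synthesis (0.62 with Enalapril, adjusted p = 0.00671, and 0.59 with the combination, adjusted p = 0.00226), and Slc7a13, an amino acid transporter (0.84, adjusted p = 0.0320, and 0.82, adjusted p = 0.0131). The Enalapril call of Slc7a13 held in 14 of 20 fits that left out 1 animal (adjusted p up to 0.0608) and in 6 of 11 alternatives (0.0142 to 0.519), and was lost without Vehicle animal 1003 or 1006 or Enalapril animal 2005, 2008, 2009 or 2011. The summed level of the 12 markers was between 4867 and 6266 FPKM in Enalapril animals, 1819 and 5706 in Compound 1 animals, 4602 and 6163 in combination animals, and 2521 and 4855 in Vehicle. By adjusted p, 3.58% of all tested genes were higher with Enalapril and 6.38% with the combination. After median-of-ratios scaling all 12 markers were higher with Enalapril and all 12 with the combination, and 0 with Compound 1.

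The mean log2 level of these markers exceeded that of every Vehicle animal in 9 of 9 Enalapril animals and 9 of 12 combination animals. With this mean as a covariate, a fit chosen after the data were seen, the log2 fold change with Enalapril was 0.10 for Aqp7 (adjusted p = 0.369), 0.15 for Aqp11 (adjusted p = 0.375) and -0.12 for Aqp1 (adjusted p = 0.429). With the combination it was 0.19 for Aqp7 (adjusted p = 0.0835), 0.20 for Aqp11 (adjusted p = 0.174) and -0.06 for Aqp1 (adjusted p = 0.465). Since the marker mean itself did not overlap between Enalapril and Vehicle, it and the treatment cannot be told apart in that comparison. Of all tested genes, 1 met the fold rule upward and 0 downward with Enalapril under this covariate, against 66 and 546 without it. With the combination these counts were 17 and 216, against 133 and 860.

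Aqp1 is also made by red blood cells and the endothelium of the descending vasa recta, and Aqp7 by fat cells. The 4 red blood cell genes summed to between 1461 and 4174 FPKM with Enalapril and between 1540 and 5461 with the combination, against 1135 to 3113 in Vehicle, and 0 of 4 passed with Enalapril and 1 of 4 with the combination, Hbb, which was higher (0.40, adjusted p = 0.0339). Of 7 endothelial markers, 2 were higher and 1 lower with Enalapril and 2 higher with the combination, with sums of 166 to 241, 191 to 252 and, in Vehicle, 168 to 231 FPKM. After median-of-ratios scaling 4 were higher and 0 lower with Enalapril, and 6 were higher with the combination. The fat cell markers Lep and Plin1 averaged below 1 FPKM in every group, and the 8 fat cell markers summed to 54.4 to 83.5 FPKM with Enalapril and 59.1 to 80.3 with the combination, against 57.6 to 92.1 in Vehicle. Of the 6 that were tested, 1 was higher and 2 lower with Enalapril, and 1 was higher and 3 lower with the combination. Beside the counts of all 3 lists, 3.58% of all tested genes were higher and 26.7% lower with Enalapril. With the combination these shares were 6.38% and 39.4%. Of the fat cell markers, Cidec was higher with both treatments (0.30, adjusted p = 0.0418, and 0.59, adjusted p = 5.7e-05). Cfd (-0.82 and -0.90) and Adipoq (-0.40 and -0.31) were lower with both, and Lipe was lower with the combination (-0.25, adjusted p = 0.0393). The part of red blood cells, endothelium and fat in the aquaporin changes was not tested.

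The vasopressin receptor and the principal cell aquaporins showed no change against Vehicle that passed the test. Avpr2 had 9.37 FPKM in the lowest, 10.5 in the median and 13.6 in the highest animal with Enalapril, 7.91, 11.8 and 17.9 with Compound 1, and 9.76, 11.6 and 16.1 with the combination, against 9.02, 11.95 and 22.3 in Vehicle. Its log2 fold change was -0.15 ± 0.12 with Enalapril (95% interval of the fold 0.760 to 1.08, adjusted p = 0.364), 0.0024 ± 0.13 with Compound 1 (0.829 to 1.21) and 0.02 ± 0.12 with the combination (0.858 to 1.20). The highest value in any group was that of Vehicle animal 1004, which also had the highest Aqp2 of its group, 96.3 FPKM, and the lowest Aqp4, 2.55 FPKM.

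Aqp2 had 55.0 FPKM in the lowest, 66.6 in the median and 80.9 in the highest animal with Enalapril, 68.7, 78.6 and 92.0 with Compound 1, and 66.0, 74.5 and 96.4 with the combination, against 56.0, 79.4 and 96.3 in Vehicle. With Enalapril, 8 of 9 animals lay below the Vehicle median, and the log2 fold change was -0.18 ± 0.09 (0.882-fold, 95% interval 0.780 to 0.996, unadjusted p = 0.0438, adjusted p = 0.106 with limma), near the median of -0.15 of all genes. It passed only when Vehicle animal 1006, the lowest of its group, was left out (-0.23, adjusted p = 0.0268). With Compound 1 it was 0.04 ± 0.07 and with the combination -0.03 ± 0.07, with 95% intervals of the fold of 0.931 to 1.14 and 0.883 to 1.09.

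Aqp3, a channel for water and glycerol, had 23.1 FPKM in the lowest, 32.7 in the median and 38.3 in the highest animal with Enalapril, 28.6, 34.4 and 39.4 with Compound 1, and 28.9, 34.8 and 38.9 with the combination, against 26.3, 36.3 and 43.4 in Vehicle. The ranges lay over each other, and the log2 fold changes were -0.17 ± 0.09, -0.07 ± 0.07 and -0.09 ± 0.07 (adjusted p = 0.162, 0.676 and 0.274 with limma).

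Aqp4 differed most between the treatments, with its highest levels under Compound 1 alone. It had 2.90 FPKM in the lowest, 3.28 in the median and 5.76 in the highest animal with Enalapril, 3.84, 5.68 and 7.51 with Compound 1, and 2.78, 4.15 and 5.79 with the combination, against 2.55, 4.18 and 6.12 in Vehicle. With Compound 1, 11 of 12 animals lay above the Vehicle median, and the log2 fold change was 0.42 ± 0.13 (1.34-fold, 95% interval 1.12 to 1.6, unadjusted p = 0.00275, adjusted p = 0.145 with limma). After median-of-ratios scaling it was 0.49 and passed (adjusted p = 0.0157; range over the alternatives 0.0157 to 0.222). With Enalapril the log2 fold change was -0.23 ± 0.15 (adjusted p = 0.229) and with the combination -0.05 ± 0.14 (adjusted p = 0.775).

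Set directly against Compound 1, Enalapril gave lower Aqp4 and Aqp2 and higher Aqp7 and Aqp11. Aqp4 was the 1 of the 7 to meet the fold rule here, at -0.65 ± 0.13 (0.636-fold, 95% interval 0.527 to 0.768, adjusted p = 0.00113), with 7 of 9 Enalapril animals below every Compound 1 animal; 2.22% of tested genes met it there. Aqp4 no longer met it with a pseudocount of 1, median-of-ratios scaling or the medulla covariate, where its adjusted p still passed (-0.54, -0.57 and -0.59), nor with the proximal tubule covariate (-0.56, adjusted p = 0.0819 with limma; range over the alternatives 0.000412 to 0.0819). By adjusted p alone, 2 of 7 were higher and 2 of 7 lower, against 2.61% and 10.9% of all tested genes. Aqp2 was lower (-0.22 ± 0.07, adjusted p = 0.0352), which no longer passed after median-of-ratios scaling (adjusted p = 0.315; range over the alternatives 0.0260 to 0.421). Aqp7 was higher (0.24 ± 0.07, adjusted p = 0.0250), as was Aqp11 (0.38 ± 0.10, adjusted p = 0.0111). Over the alternatives Aqp7 passed in 7 of 11 (adjusted p from 0.0159 to 0.868) and Aqp11 in 9 of 11 (adjusted p from 0.00475 to 0.772), with the lowest log2 fold changes, 0.031 and 0.066, under the proximal tubule covariate. Under that covariate 2 of all tested genes met the fold rule upward and 26 downward in this comparison, against 44 and 255 without it.

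Set against Compound 1, the combination gave higher Aqp1, Aqp7 and Aqp11 and lower Aqp4; this comparison shares the Compound 1 animals with the one before, and the dose of Compound 1 differed between its groups. Aqp1 (0.24 ± 0.09, adjusted p = 0.0422), Aqp7 (0.30 ± 0.07, adjusted p = 0.00239) and Aqp11 (0.42 ± 0.10, adjusted p = 0.00233) were higher and Aqp4 was lower (-0.47 ± 0.12, adjusted p = 0.00681). That is 3 of 7 higher and 1 of 7 lower, against 4.75% and 17.6% of all tested genes. With the proximal tubule marker mean as a covariate none of these 4 passed, with log2 fold changes of -0.07 for Aqp1, 0.09 for Aqp7, 0.11 for Aqp11 and -0.38 for Aqp4 (adjusted p = 0.588, 0.462, 0.507 and 0.266). The loss was not particular to them. Of all tested genes, 1 met the fold rule upward and 0 downward under that covariate, against 37 and 276 without it.

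Adding Compound 1 to Enalapril made no difference to the 7 genes that passed the test. In the combination against Enalapril, 0 of 7 passed, as did 0.0521% of all genes. The largest difference was that of Aqp4 (0.18 ± 0.13), and Aqp2 alone had an unadjusted p under 0.05 (0.15 ± 0.07, 1.11-fold, 95% interval 1.00 to 1.23, adjusted p = 0.452 with limma). The interaction of Enalapril with Compound 1 passed in 0 of 7 (adjusted p of 0.986 or above, and 0 of 7 at an unadjusted p under 0.05) and in 0.00744% of all genes. For Aqp7 the interaction was 0.0073 ± 0.10 on the log2 scale (95% interval of the fold 0.872 to 1.16) and for Aqp11 -0.04 ± 0.14 (0.799 to 1.19). Because the dose of Compound 1 was higher alone than in the combination, interaction and dose cannot be told apart.

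Of the other aquaporins, Aqp6, a channel of intracellular vesicles in intercalated cells, was measured at 76.0 ± 8.88 FPKM with Enalapril, 88.3 ± 6.77 with Compound 1, 85.3 ± 9.63 with the combination and 79.4 ± 7.21 in Vehicle. Its log2 fold changes against Vehicle of -0.07, 0.16 and 0.10 did not pass (adjusted p = 0.476, 0.226 and 0.184), although that with the combination did after median-of-ratios scaling (0.28, adjusted p = 0.00251; range over the alternatives 0.00251 to 0.236). For Enalapril against Compound 1, Aqp6 was lower (-0.22, adjusted p = 0.0174 with limma), which did not pass after median-of-ratios scaling (-0.14). Aqp5, Aqp8, Aqp9, Aqp12a and Mip averaged below 1 FPKM in every group and were not tested. Of the other vasopressin receptors, Avpr1a averaged 3.43 FPKM with Enalapril, 4.31 with Compound 1, 4.08 with the combination and 4.12 in Vehicle, and Avpr1b was listed at 0 in every animal. Avpr1a was lower for Enalapril against Compound 1 (-0.33, adjusted p = 0.0313 with limma), while Enalapril against Vehicle did not pass (-0.26, adjusted p = 0.0962).

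The list of vasopressin signalling held 23 tested genes, mostly of cyclic AMP signalling but also the receptor Avpr1a. With Enalapril 0 were higher and 7 lower, 0 passed with Compound 1, and with the combination 0 were higher and 8 lower. The median log2 fold changes were -0.23, -0.05 and -0.13. Arrb2, an arrestin that ends receptor signalling, was lower with Enalapril (-0.48 ± 0.10, adjusted p = 0.00160) and with the combination (-0.56 ± 0.10, adjusted p = 0.000144). Pde4a, a phosphodiesterase that breaks down cyclic AMP, was also lower (-0.56 ± 0.14, adjusted p = 0.00441, and -0.42 ± 0.12, adjusted p = 0.00903). Prkar2b, a regulatory subunit of protein kinase A, was lower with the combination (-0.42 ± 0.13, adjusted p = 0.00944). The shares lower stood near those of all tested genes, 26.7% with Enalapril and 39.4% with the combination. After median-of-ratios scaling, 2 of the 23 were lower with Enalapril, and 2 were higher and 2 lower with the combination.

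Of 20 tested genes that move Aqp2 vesicles, 0 were higher and 9 lower with Enalapril and with the combination, and 0 passed with Compound 1, where 26.7% and 39.4% of all tested genes were lower with Enalapril and the combination. The lower ones included Mal, a membrane protein of apical sorting (-0.39 ± 0.07, adjusted p = 0.000865, and -0.35 ± 0.06, adjusted p = 0.000229), and Vamp3, a vesicle fusion protein (-0.19 ± 0.06, adjusted p = 0.0175, and -0.34 ± 0.06, adjusted p = 8.5e-05). The medians of this list, -0.15, -0.09 and -0.17, were close to those of all genes, and after median-of-ratios scaling 1 was higher and 1 lower with Enalapril and 4 were higher and 3 lower with the combination. These genes are expressed in most cells of the kidney. The genes named from these signalling and traffic lists did not meet the fold rule and were picked after their values were seen.

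Among 10 principal cell markers, 0 were higher and 4 lower with Enalapril, 1 was higher and 1 lower with Compound 1, and 1 was higher and 3 lower with the combination. Of all tested genes, 3.58% were higher and 26.7% lower with Enalapril, and 6.38% and 39.4% with the combination. With Compound 1, 0.476% passed in either direction. Kcne1, a subunit of voltage-gated potassium channels, had 2.94 ± 0.975 FPKM with Enalapril, 2.78 ± 0.739 with Compound 1, 4.11 ± 0.781 with the combination and 4.56 ± 1.09 in Vehicle. It was lower with Enalapril (-0.64 ± 0.16, adjusted p = 0.00632) and with Compound 1 (-0.71 ± 0.16, adjusted p = 0.0332) and met the fold rule in both, and it did not pass with the combination. Over the alternatives its adjusted p ranged from 0.00313 to 0.128 with Enalapril and from 0.00548 to 0.101 with Compound 1. Scnn1a, the alpha subunit of the epithelial sodium channel, was higher with Compound 1 (0.34 ± 0.06, adjusted p = 0.00313) and with the combination (0.32 ± 0.09, adjusted p = 0.00604). Gata3 (-0.40 and -0.30), Tfap2b (-0.28 and -0.46) and Hsd11b2 (-0.17 and -0.16) were lower with Enalapril and with the combination. These 4 genes did not meet the fold rule. After median-of-ratios scaling the counts of principal cell markers were 2 higher and 1 lower with Enalapril, 1 higher and 0 lower with Compound 1, and 2 higher and 1 lower with the combination.

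Across animals, the proximal tubule aquaporins varied with each other, Aqp3 varied with Aqp4, and Avpr2 varied with Aqp2 and against Aqp1. With group means removed, Aqp7 and Aqp11 varied together most closely over the 44 animals (Pearson's r = 0.81, Spearman's rho = 0.78, adjusted permutation p = 0.00014 for both, from the smallest p that 100000 permutations can give, adjusted over 28 relations), and the r within groups ran from 0.62 to 0.88. Aqp1 and Aqp11 followed (r = 0.65, rho = 0.69, adjusted p = 0.00014 for both, within groups 0.29 to 0.84). Without the 2 animals farthest from the median of the first gene named, r was 0.72 and 0.67. Aqp1 and Aqp7 had an r of 0.49 (rho = 0.44, adjusted permutation p = 0.00616 and 0.0182, 0.48 without those animals), but within the combination group it was -0.17.

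Aqp2 and its receptor Avpr2 varied together (r = 0.50, rho = 0.45, adjusted permutation p = 0.00616 and 0.0120, 0.43 without the 2 farthest animals), with a within-group r of 0.69 in Vehicle and -0.23 with Enalapril. Avpr2 ran against Aqp1 in all 4 groups (r = -0.54, rho = -0.50, adjusted permutation p = 0.00259 and 0.00599, -0.50 without those animals, within groups -0.73 to -0.35). Aqp2 and Aqp3 did not pass (r = 0.35, rho = 0.29, adjusted permutation p = 0.0644 and 0.116), nor did Aqp2 and Aqp4 (r = -0.10). Aqp3 and Aqp4 varied together (r = 0.47, rho = 0.44, adjusted permutation p = 0.00803 and 0.0193, within groups 0.09 to 0.72). Aqp1 and Aqp3 passed for r and not for rho (r = 0.44, rho = 0.33, adjusted permutation p = 0.00924 and 0.0622). Aqp4 ran against Aqp7 (r = -0.42, rho = -0.41, adjusted permutation p = 0.00924 and 0.0205). In all, 15 of the 28 relations had an adjusted p under 0.05 for Pearson's r. The values of an animal share 1 library and 1 piece of tissue, and the part of tissue sampling in these relations was not tested.

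The genes were also set against markers of kidney regions. The mean of 5 medulla markers correlated with Avpr2 (r = 0.64, rho = 0.41, adjusted permutation p = 0.000373 and 0.0205, 0.43 without the 2 farthest animals) and Aqp2 (r = 0.52, rho = 0.49, adjusted permutation p = 0.0035 and 0.00599, 0.42), and ran against Aqp7 (r = -0.53, rho = -0.56, adjusted permutation p = 0.00291 and 0.00196, -0.49). For Avpr2 the within-group r ran from -0.15 to 0.83, for Aqp2 from 0.40 to 0.67 and for Aqp7 from -0.82 to 0.07, the last in the combination group. The mean of the 12 proximal tubule markers, set against the genes after the data were seen, correlated with Aqp1 (r = 0.86, rho = 0.78), Aqp11 (r = 0.78, rho = 0.73) and Aqp7 (r = 0.73, rho = 0.70; adjusted permutation p = 7e-05 in all 3, over 35 relations). Within groups r ran from 0.79 to 0.92 for Aqp1, from 0.54 to 0.87 for Aqp11 and from 0.20 to 0.86 for Aqp7. The lowest values of Aqp11 and Aqp7 were in the combination group. Without the 2 animals farthest from the median of the marker mean, r over all groups was 0.79, 0.66 and 0.61. Its r was -0.17 with Aqp2, 0.19 with Aqp3 and -0.17 with Aqp4 (adjusted permutation p of 0.331 or above), and it ran against Avpr2 (r = -0.57, rho = -0.50, adjusted permutation p = 0.00261 and 0.00653, -0.64 without those animals).

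**Figure D3:**
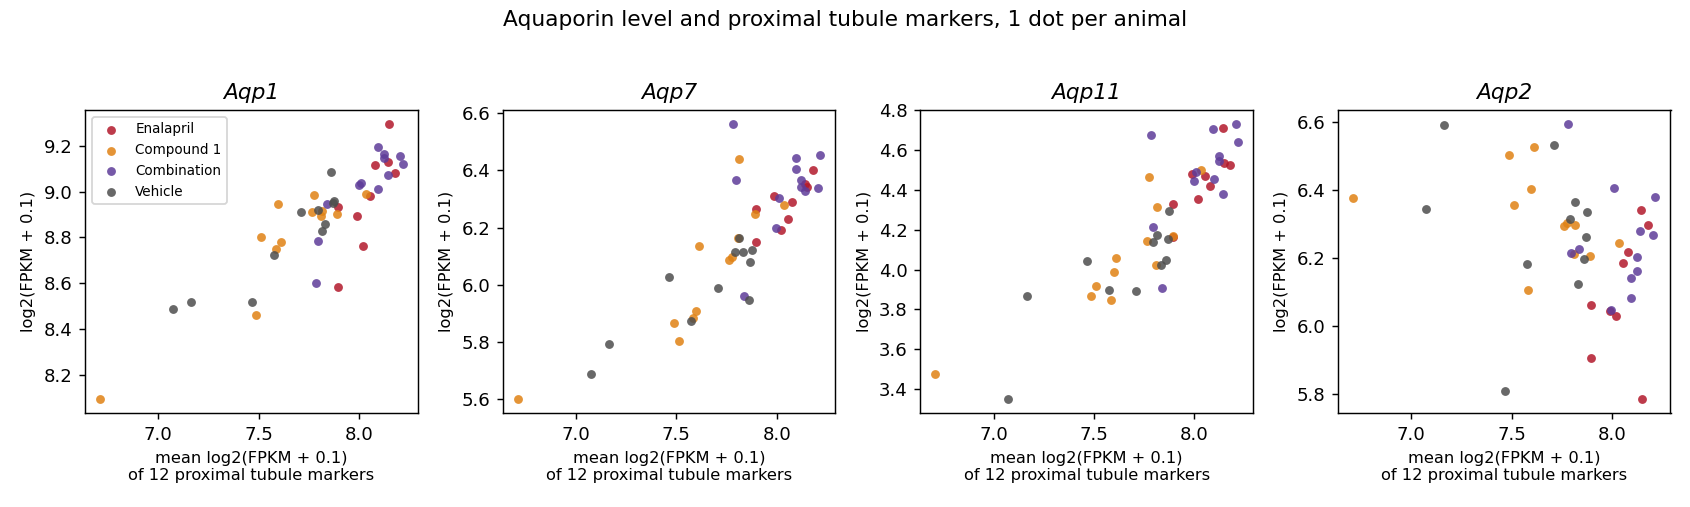
Level of Aqp1, Aqp7, Aqp11 and Aqp2 (vertical axes, log2 scale) against the mean log2 level of 12 proximal tubule markers (horizontal axis), 1 dot per animal, coloured by Enalapril, Compound 1, combination and Vehicle. Aqp1, Aqp7 and Aqp11 climb with the markers (r = 0.86, 0.73 and 0.78 with group means removed), and Aqp2 does not (r = -0.17).

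**Figure D4:**
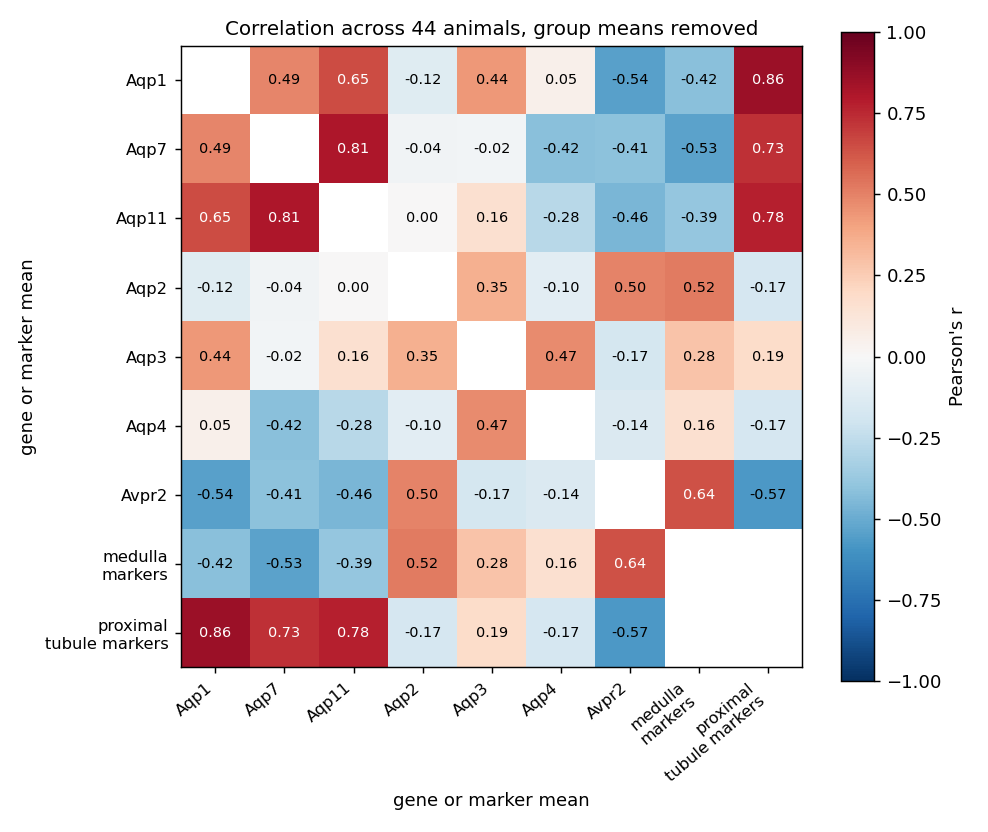
Pearson's r between each of the 7 genes, the mean of 5 medulla markers and the mean of 12 proximal tubule markers over 44 animals with group means removed, with red for positive and blue for negative values. Aqp1, Aqp7 and Aqp11 form a positive block (0.49 to 0.81), Avpr2 is negative against all 3 (-0.54, -0.41 and -0.46), and Avpr2 and Aqp2 go with the medulla markers (0.64 and 0.52).

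The genes whose levels followed each of the 7 most closely over the 44 animals, with group means removed, are given as a description. For Aqp1 they were Atp5f1a (r = 0.95) and Atp5f1b (r = 0.94), subunits of the mitochondrial ATP synthase, and Ivd (r = 0.93), an enzyme of leucine breakdown. For Aqp7 they were Rdh5 (r = 0.85), Apom (r = 0.83) and Retsat (r = 0.83), and for Aqp11 Xpnpep2 (r = 0.88), a brush border peptidase, Cyp2c23 (r = 0.87) and Hpd (r = 0.86), an enzyme of tyrosine breakdown. Avpr2 was followed by Muc1 (r = 0.81) and Tsc2 (r = 0.80). The r values were lower for Aqp2 (Babam1 0.66, Eif3b 0.61, Ptms 0.60) than for Aqp3 (Wdr83os 0.77, Strap 0.76, Snx15 0.75) and Aqp4 (Ptpn12 0.80, Rock2 0.79, Irf2 0.77).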

How the data were processed

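The submitters deposited FPKM for 32883 entries, made on build rn6 per the labels; which aligner and counter they ran is not given in the sources used here. For their own tests the authors took raw counts to DESeq2; the deposited FPKM are not counts, so log2(FPKM + 0.1) was tested with limma 3.58.1 (mean-variance trend) in R 4.3.3 on genes above 1 FPKM in at least 9 animals. A symbol on several entries was represented by the entry of highest mean, and 2 empty columns were left out.

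Each treatment was fitted against Vehicle on those groups; other comparisons came from a fit of all 4 groups. Adjusted p is Benjamini-Hochberg's, over all tested genes. Correlations used 100000 permutations within groups. Animals were separate, with no shared numbers, so no pairing was used. The fit was tested on simulated data.

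The genes and lists were chosen with earlier results of these data known. Named are the 7 genes, every other aquaporin, up to 4 genes of a list that met the fold rule per comparison, and the 3 genes most like each of the 7, of which 1 is not reported here. Other list genes were named after their values were seen. The fits were repeated with a pseudocount of 1 or 0.01, without the filter, with FPKM above 5, with median-of-ratios scaling, medulla markers as a covariate, other groups in the fit, and leaving out the 6 animals listed apart or each animal. Chosen after seeing the data were a proximal tubule covariate, a fit without Vehicle animals 1003 and 1004, and FPKM rescaled to exclude mitochondrial transcripts. Physiology and histology are not analysed here. No counting interval can be given for FPKM.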

Additional observations from a re-analysis of the deposited data

Results flagged for a closer look

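Among the 9 Enalapril animals, animal 2103 had an Aqp4 level of 5.755 FPKM, apart from the next highest at 4.143 (the gap was 0.565 of the group's range), and animal 2010 had an Avpr2 level of 13.59 FPKM, apart from the next highest at 11.15 (0.579 of the range). Only the Enalapril group was examined in this way, for the 7 genes and Aqp6 (8 groups of values), because the other groups hold more than 10 animals, and chance sets apart about 1 in 20. In Vehicle, which was not examined, animal 1004 had an Avpr2 level of 22.3 FPKM against a next highest of 13.3.

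The effect of Enalapril on Kcne1 differed with and without Compound 1, with an interaction of 1.214 ± 0.23 (SE) on the log2 scale (limma, adjusted p = 0.0338), since its level was 2.94 FPKM with Enalapril and 2.78 with Compound 1 but 4.11 with the combination and 4.56 in Vehicle. The adjusted p ranged from 0.00512 to 0.272 over 9 alternatives and passed in 6. No gene met the fold rule for the interaction without the filter, after median-of-ratios scaling or with FPKM rescaled without mitochondrial transcripts. Because the final dose of Compound 1 was 3 mg/kg/day alone and 1 in the combination, interaction and dose cannot be told apart.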

How the results depend on the processing

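FPKM hold no read totals, so counting error could not be separated from the spread between animals. Aqp7 and Aqp11 passed in all 20 fits with Enalapril and all 23 with the combination that left out 1 animal, as did Aqp1 in all 23 with the combination. Leaving out 1 animal gave log2 fold changes against Vehicle of either sign for Aqp1 with Compound 1 from -0.0417 to 0.0524, Aqp2 with Compound 1 from -0.00605 to 0.0721, Aqp2 with the combination from -0.0746 to 0.00355, Aqp4 with the combination from -0.12 to 0.00367, Avpr2 with Compound 1 from -0.0523 to 0.0943 and Avpr2 with the combination from -0.0187 to 0.11. The causes of the changes below were not tested.

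After median-of-ratios scaling, against Vehicle, Aqp1 was 0.0636 and Aqp3 0.0061 with Compound 1, Aqp6 0.0921 and Avpr2 0.0116 with Enalapril, and Aqp2 0.15, Aqp3 0.0837 and Aqp4 0.12 with the combination. Against Compound 1, the combination gave 0.0353 for Aqp2 and 0.0776 for Aqp3, and the interaction of Aqp7 was -0.0472. The genes that met the fold rule numbered 1 with Enalapril, 1 with the combination and 0 for Enalapril against Compound 1, and 1 passed by adjusted p with Compound 1 (Aqp4). Rescaled without mitochondrial transcripts, against Vehicle, Aqp1 was 0.0427 with Compound 1, Aqp6 0.0449 with Enalapril, and Aqp2 0.0673, Aqp3 0.00081 and Aqp4 0.0428 with the combination. Aqp3 was 0.0155 for the combination against Compound 1, the interactions were -0.0117 for Aqp1 and -0.0622 for Aqp7, and 1 gene met the fold rule with the combination and 1 passed by adjusted p with Compound 1.

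With medulla markers as a covariate, Aqp7 (adjusted p = 0.0645) and Aqp11 (adjusted p = 0.0533) no longer passed with Enalapril in limma. Aqp2 was 0.0598 for the combination against Vehicle and 0.0138 against Compound 1, Aqp3 was 0.0211 for the combination against Compound 1, and Avpr2 was 0.0596 for Enalapril against Vehicle and 0.0703 against Compound 1. By adjusted p, 0 passed with Enalapril and 1 for Enalapril against Compound 1, where 0 met the fold rule.

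With proximal tubule markers as a covariate, Aqp1 was -0.12 with Enalapril and -0.0636 with the combination against Vehicle, and -0.12 with Enalapril and -0.0685 with the combination against Compound 1. Against Vehicle, Aqp2 was 0.0325 with the combination, and Avpr2 was 0.16 with Enalapril and -0.0017 with Compound 1; Avpr2 was 0.12 for Enalapril against Compound 1. Pck1 was -0.0493 and Slc7a13 -0.31 with Enalapril, and -0.0223 and -0.25 with the combination; both are among the markers of the covariate. By adjusted p, 0 of 7 passed with Enalapril and 0 with the combination against Vehicle, and 0 with Enalapril and 0 with the combination against Compound 1, where 0 met the fold rule for Enalapril.

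With a pseudocount of 1, 0 genes met the fold rule for Enalapril against Compound 1. Without Vehicle animals 1003 and 1004, Aqp11 was -0.01004 and Aqp7 -0.0059 with Compound 1, Aqp2 was 0.0142 with the combination, and the interaction of Aqp11 was 0.0467. Without the 6 animals listed apart, Avpr2 was -0.0454 with Compound 1, Aqp6 was 0.0019 with Enalapril, and 2 genes passed by adjusted p for Enalapril against Compound 1.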

Other observations

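The urea transporters of the kidney, which carry urea in the inner medulla and the vasa recta, were lower in both treatments that contained Enalapril. Slc14a2 had 5.55 ± 1.18 FPKM with Enalapril, 6.36 ± 1.38 with Compound 1, 5.63 ± 0.896 with the combination and 7.498 ± 1.30 in Vehicle, with log2 fold changes of -0.44 ± 0.12 with Enalapril (SE, adjusted p = 0.00861 with limma) and -0.41 ± 0.10 with the combination (adjusted p = 0.00198). Slc14a1 was lower by the same test (-0.43, adjusted p = 0.0413, and -0.50, adjusted p = 0.00684). Both are among the medulla markers, whose mean lay below that of every Vehicle animal in 5 of 9 Enalapril and 6 of 12 combination animals. In the same list of 8 genes of loop salt transport and urea, the combination gave higher Bsnd (0.28) and Kcnj1 (0.24), 2 genes of salt transport in the thick ascending limb. Of these 8, 0 were higher and 2 lower with Enalapril, and 2 were higher and 2 lower with the combination. Of all tested genes, 3.58% were higher and 26.7% lower with Enalapril, and 6.38% and 39.4% with the combination. After median-of-ratios scaling, 1 of the 8 was higher and 0 lower with Enalapril, and 5 were higher and 1 lower with the combination. With the proximal tubule covariate 0 were lower in either comparison, and 2 were higher with the combination. Under that covariate 1 of all tested genes met the fold rule upward and 0 downward with Enalapril, and 17 and 216 with the combination.

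Sgk1 is a kinase that raises sodium channel activity in the collecting duct and responds to osmotic stress. It was the one gene of 9 tested on the osmotic response list to meet the fold rule, and only with Enalapril. It had 86.2 ± 19.6 FPKM with Enalapril, 61.2 ± 16.2 with Compound 1, 77.2 ± 18.8 with the combination and 56.7 ± 14.3 in Vehicle, and the groups overlapped. Its log2 fold change was 0.61 ± 0.14 with Enalapril (adjusted p = 0.00267 with limma) and 0.44 ± 0.13 with the combination (adjusted p = 0.00779). The Enalapril value passed in 10 of 11 alternatives (adjusted p from 0.000932 to 0.169), and not with the proximal tubule covariate (0.56). The fold rule was met by 4.55% of all tested genes with Enalapril. By adjusted p, 2 of the 9 were higher and 1 lower with Enalapril, and 3 were higher and 2 lower with the combination. Hspa1b was lower with both (-0.50 and -0.49) and Nfat5 with the combination (-0.58). Of all tested genes, 26.7% and 39.4% were lower. With the proximal tubule covariate 0 of the 9 passed with either treatment. That covariate also left few calls among all tested genes with Enalapril, where 1 met the fold rule upward and 0 downward. Of 8 intercalated cell markers, 1 was higher in Enalapril animals and 3 in combination animals, none passed with Compound 1, and 0 were lower, where 3.58% and 6.38% of all tested genes were higher with Enalapril and the combination. After median-of-ratios scaling 3 and 6 were higher, and with the proximal tubule covariate 0 and 0, with 2 higher for Compound 1.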
